A study of Danio rerio with 16 samples.

Results

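The long arm of zebrafish chromosome 4 was described here as the set of genes with a transcript starting at position 28000000 or beyond on chromosome 4 of the GRCz10 assembly. Genes of the pimr family were left out by their symbol, which removed 2 genes. Counts were summed over the transcripts of each Ensembl gene, which gave 2396 genes with 3023 transcripts, of 31812 genes with 57264 transcripts in the whole table. The short arm, below the same position, held 705 genes and served as the comparison. RNA came from wild-type WIK larvae at 5 dpf, either in vehicle (control, n = 8) or exposed to 1.6 µM triptolide (TP, n = 8) for 6 h. Each replicate was a pool of 30 whole larvae from 1 dish. All organs were therefore mixed, and fewer cells of a type and less RNA per cell cannot be told apart.

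In zebrafish this arm is known as a late-replicating, repeat-rich and largely heterochromatic region. It carries large tandem families of C2H2 zinc finger genes and NLR immune receptor genes, many copies of spliceosomal snRNA and 5S ribosomal RNA genes, and the miR-430 cluster, whose microRNAs clear maternal mRNA in the early embryo. In wild strains it also carries a sex-linked region. TP is known to bind a subunit of TFIIH and to block initiation by RNA polymerase II, which transcribes mRNA and the U1 snRNA. 5S rRNA and the U6 snRNA are made by RNA polymerase III, and the 5.8S rRNA by RNA polymerase I.

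Much of the arm was annotated as repeated families and clone-named genes. Of the 2396 genes, 1072 were small RNA genes, 187 carried a zinc finger name, 2 an NLR name, 687 another name or ID listed in a current reference table, and 448 matched nothing there. Clone names such as si:dkey or CR were borne by 44.7% of the long-arm genes and 27.2% of the short-arm genes. Small RNA genes of the long arm bore family names instead, and most of its other genes bore clone names. No count was seen in any library for 666 long-arm genes, of which 639 were small RNA genes. Another 578 had counts but too few to test, so 1152 of 2396 genes were tested. On the short arm 583 of 705 genes were tested. Tested long-arm genes were at a median control level of 1.33 CPM per kb, against 4.33 on the short arm and 3.83 over all genes (CPM, counts scaled to a library total of 1e+06).

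Library totals ran from 19679120 to 75490916 counts in control and from 26631852 to 41093922 in TP treated pools, with all counts even. The labels name no batch. Every marker on the lists of 8 cell types had counts in these whole larvae. All 4 skeletal muscle genes were higher in TP, with sums of 18603 to 22277 CPM in control and 23361 to 27701 CPM in TP. Of 4 leukocyte genes 3 were lower, with sums of 32.2 to 46.1 and 22.9 to 29.1 CPM. Of 5 tested germ cell genes 2 were higher, with sums of 6.28 to 8.95 and 9.16 to 11.6 CPM. Of 6 liver genes 2 were higher and 2 lower. On the other lists 1 of 3 tested oocyte genes was higher, 1 of 4 lens and retina genes lower, and no exocrine pancreas or neuron gene was called. Over all genes 41.9% were lower and 4.59% higher in the test given below. With the TMM factors given there, 1 leukocyte gene and 1 lens and retina gene were lower. Higher with them were 4 muscle, 4 exocrine pancreas, 3 germ cell, 3 liver, 1 oocyte and 1 neuron genes. The part of these cell types in the long-arm results was not tested.

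Long-arm genes that changed in TP treated larvae were nearly all lower. Of 1152 tested genes, 418 (36.3%) were lower and 8 (0.694%) higher at an adjusted p of 0.01 or less (edgeR quasi-likelihood test, Benjamini-Hochberg over all genes). Over all 24462 tested genes, 41.9% were lower and 4.59% higher. On the short arm, 258 of 583 genes (44.3%) were lower and 29 (4.97%) higher. The median log2 fold change was -0.44 on the long arm, -0.35 on the short arm and -0.35 over all genes. The groups did not overlap in 157 of the long-arm genes (13.6%), against 22.8% of all genes. With TMM factors, which centre most genes on no change, the median of all genes moved from -0.35 to -0.0011 and the long-arm calls became 129 lower and 41 higher, while 16.5% of all genes were lower and 15.9% higher. The difference between the arms was not tested. Without control library 8, 16 long-arm genes were higher. In libraries 1 to 4 of each group alone, 175 long-arm genes were lower and 8 higher (median -0.56, all genes -0.46). Those 8 all lie around the 5.8S rRNA copies described below, and none is among the 8 called over all libraries. In libraries 5 to 8 alone 178 were lower and 12 higher (median -0.54, all genes -0.25), and these 12 hold 6 of the 8. Over all genes 6379 were lower and 393 higher in libraries 1 to 4, and 6761 and 1429 in libraries 5 to 8. Small RNA genes of the arm had medians of 1.30 in libraries 1 to 4 and -0.75 in libraries 5 to 8. Without them and the genes around the 5.8S rRNA copies, the long-arm medians were -0.67 and -0.43. This split by accession order was made because the libraries differed along it, as described below.

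**Figure D1:**
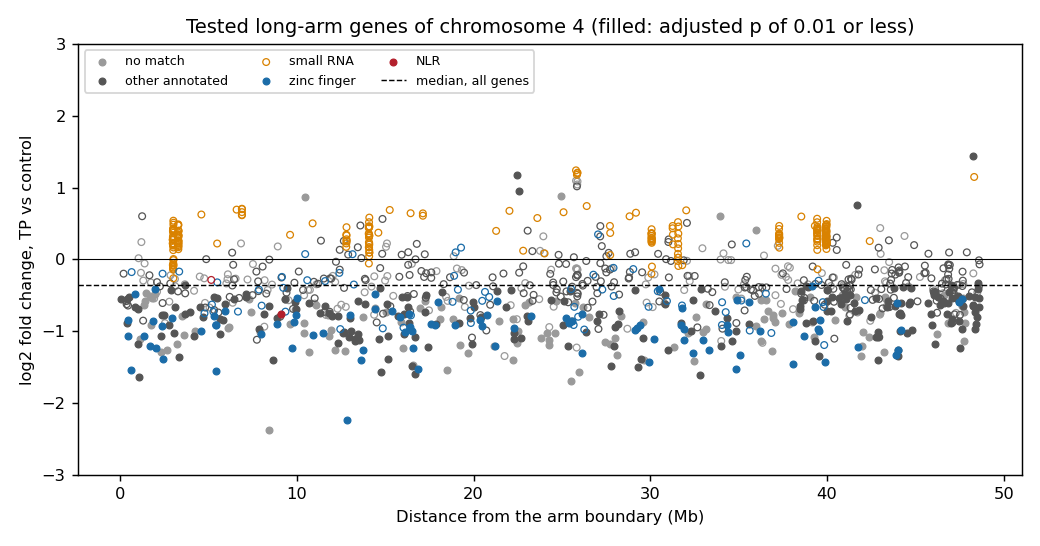
log2 fold change (TP vs control) of each of the 1152 tested long-arm genes against its distance from the arm boundary in Mb, coloured by class, with filled points for genes at an adjusted p of 0.01 or less and a dashed line at the median of all genes (-0.35). Filled points lie almost wholly below 0 along the whole arm, and the small RNA genes (open, orange) lie mostly above it with none called when scaled by library totals.

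Small RNA genes held none of the calls made with library totals over all 16 libraries. None of the 218 tested was called in edgeR or limma. DESeq2 called 1 higher and 0 lower, against 4379 higher and 4359 lower over all genes. At an unadjusted p under 0.05, 5 were higher and 0 lower. The share at that cut was not counted over all genes. With TMM factors 5 were higher and 0 lower, all of them 5.8S rRNA genes. Without control library 8, 5 were higher, without TP library 4, 2 were higher, and in libraries 5 to 8 alone 3, all U1 genes, were lower. Leaving them out together with the genes around the 5.8S rRNA copies described below, 418 of 918 genes (45.5%) were lower, 8 (0.871%) higher, and the median was -0.57. Over all genes 41.9% were lower and 4.59% higher, with a median of -0.35. With TMM factors 129 of the 918 were lower and 34 higher (median -0.22), while 16.5% of all genes were lower and 15.9% higher. These 918 genes had a lower median control level than all genes, so they were also counted in bands of level, with library totals only. Between 1 and 3 CPM in control, 47.7% of 367 long-arm genes were lower, against 27.9% of 3689 genes outside chromosome 4. Between 3 and 10 CPM the shares were 65.0% of 220 genes and 47.7% of 6297 genes. At 10 CPM or more the order was turned, with 35.1% of 94 long-arm genes and 52.4% of 10230 genes elsewhere. Small RNA genes were left out on the long arm only, and genes elsewhere kept theirs. With all tested long-arm genes counted, the lower shares in these bands were 33.0% of 530, 57.7% of 248 and 28.4% of 116.

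With library totals, down-regulation was spread along the arm. Without small RNA genes and the 5.8S neighbourhood, the share of lower genes in windows of 5 Mb was between 39.5% (32 of 81, from 55 to 60 Mb) and 59.0% (23 of 39, from 28 to 30 Mb). The window medians lay between -0.69 (from 40 to 45 Mb) and -0.48 (from 70 to 75 Mb). No window held more than 3 higher genes. Over all genes, small RNA genes included, 41.9% were lower and 4.59% higher, and several windows were near that share of lower genes. With TMM factors, and with all tested genes of a window counted, the windows held 6 to 22 lower and 1 to 12 higher genes. From 50 to 55 Mb, the window that holds the 5.8S neighbourhood, 12 were higher and 10 lower.

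**Figure D2:**
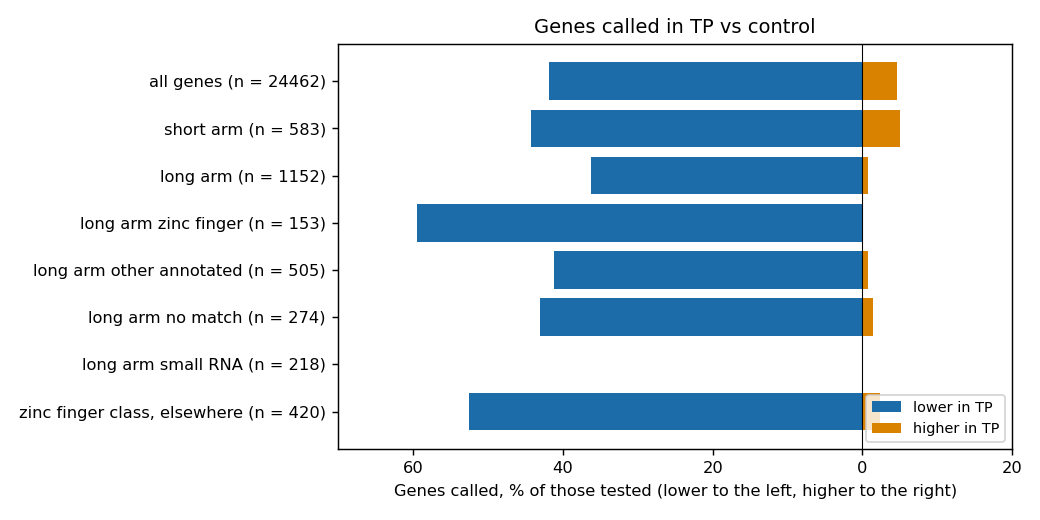
Percentage of tested genes called lower (left) or higher (right) in TP for all genes, both arms of chromosome 4, the long-arm classes, and zinc finger genes elsewhere in the genome, with the number tested in brackets. Long-arm zinc finger genes reached 59.5% lower and those elsewhere 52.6%. The small RNA genes had no call with the library totals used here, and all genes were at 41.9% lower and 4.59% higher.

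Zinc finger genes, whose products are DNA-binding proteins with arrays of C2H2 fingers, fell most often among the classes. Of 187 genes, 34 had too few counts to test, and of those tested 91 (59.5%) were lower, 0 were higher, and the median log2 fold change was -0.80. At an unadjusted p under 0.05, 1 was higher; limma called 0 higher and 98 lower, and DESeq2 5 higher and 44 lower. With TMM factors 5 were higher and 40 lower. Of the 420 tested zinc finger genes elsewhere in the genome, 221 (52.6%) were lower and 10 (2.38%) higher, with a median of -0.41. With TMM factors 97 of those 420 were lower and 45 higher. Over all genes 41.9% were lower and 4.59% higher, or 16.5% and 15.9% with TMM factors. The control median of the zinc finger genes elsewhere was 9.81 CPM, against 1.50 CPM on the long arm. Between 1 and 3 CPM, 46 of 61 long-arm zinc finger genes (75.4%) were lower and 19 of 60 elsewhere (31.7%). At 10 CPM or more the counts were 7 of 16 (43.8%) and 140 of 208 (67.3%). These shares were not tested against each other.

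The gene CABZ01050663.1, now named znf1120, lies from 28644784 to 28651122. It was at 2.45, 3.40 and 5.02 CPM (lowest, median and highest of 8) in control and at 0.836, 1.20 and 1.69 CPM in TP treated larvae. Every TP pool was below every control pool, with -1.54 on the log2 scale (standard error, SE, 0.18; adjusted p = 6.1e-07 from edgeR). znf981, from 62820911 to 62833851, measured 3.17, 4.43 and 5.15 CPM in control pools and 0.878, 1.47 and 2.05 CPM after TP, again without overlap (log2 fold change -1.53, SE 0.16, adjusted p = 1.8e-07 from edgeR). Gene ENSDARG00000101147, named znf987, from 66047635 to 66049189, had a narrow spread. It measured 3.22 ± 0.287 CPM in control pools and 1.17 ± 0.165 CPM after TP (SD, n = 8; log2 fold change -1.45, SE 0.13).

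A second gene named znf987 (ENSDARG00000094459), from 40843717 to 40859902, had the larger log2 fold change of -2.24 at a lower level. Its control pools spanned 0.291 to 1.45 CPM and its TP pools 0 to 0.314 CPM, so the groups overlapped. znf1000, from 33415377 to 33436298, measured 0.503 to 1.57 CPM in control pools and 0.113 to 0.389 CPM after TP, with a log2 fold change of -1.56. Its highest control pool stood well apart from the other control pools. Copies of a family share sequence, so reads of near-identical zinc finger genes could have been placed on any of them.

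Not every zinc finger gene fell. znf1149, the best expressed one named here, measured 61.3, 77.5 and 94.1 CPM in control pools and 48.1, 69.6 and 90.5 CPM after TP. The groups overlapped over most of their range (log2 fold change -0.14, SE 0.13, adjusted p = 0.38 from edgeR). The abundant clone-named gene si:dkey-176f19.6 measured 120 to 198 CPM in control pools and 99.5 to 176 CPM after TP (log2 fold change -0.17, adjusted p = 0.27 from edgeR). Both were chosen after their values were seen, and both have positive log2 fold changes with TMM factors (0.21 and 0.18).

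Genes that bore only clone names, as most long-arm genes outside the small RNA genes did, were among the most strongly down-regulated. si:dkey-23a23.2, from 29079208 to 29095592, measured 2.13, 2.51 and 3.89 CPM in control pools and 0.487, 0.887 and 1.35 CPM after TP (log2 fold change -1.64, SE 0.21). si:ch211-210m1.2, from 53941533 to 53954195, measured 4.95, 8.00 and 8.63 CPM in control pools and 2.03, 2.53 and 3.31 CPM after TP (log2 fold change -1.56, SE 0.12, adjusted p = 3.6e-09 from edgeR). Its lowest control pool was still above the highest TP pool. CR762475.2 had a log2 fold change of -1.70, si:dkey-29j8.2 of -1.57, zgc:174314 of -1.49 and si:ch211-162i8.5 of -1.48, all without overlap between the groups. In BX537137.2, si:dkeyp-35e5.9, si:dkey-256i11.2 and BX321887.1 the groups overlapped, and the log2 fold changes were -2.37, -1.61, -1.59 and -1.54. With TMM factors the calls of si:dkeyp-35e5.9 and BX321887.1 were lost.

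**Figure D3:**
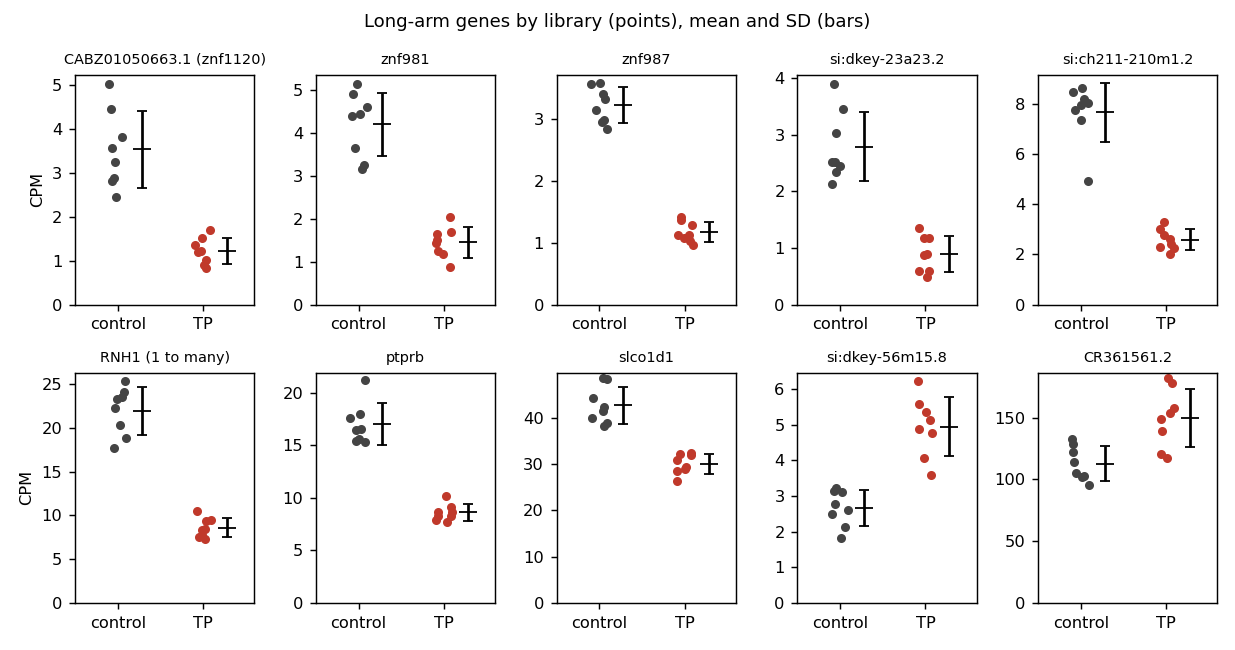
CPM of 10 long-arm genes in each of the 8 control and 8 TP libraries (points), with the mean and SD (bars), each panel with its own axis from 0. The TP points lie below all control points in the first 8 panels and above them in si:dkey-56m15.8, while they overlap in CR361561.2.

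Of the NLR genes, cytoplasmic receptors of innate immunity, 2 carried such a name. si:dkeyp-86c4.1 (now nlrp12l2) measured 1.82 ± 0.270 CPM in control pools and 1.08 ± 0.348 CPM after TP (SD, n = 8; log2 fold change -0.76, adjusted p = 0.0018 from edgeR). That call was lost with TMM factors (adjusted p = 0.094 from edgeR), in DESeq2, with only the most abundant transcript of the gene, and in libraries 1 to 4 or 5 to 8 alone (adjusted p = 0.028 and 0.062 from edgeR). si:dkeyp-4f2.1 (now nlrc3l2), starting at 33162461, was at 2.40 ± 0.331 and 1.97 ± 0.527 CPM and did not pass the test (log2 fold change -0.29, adjusted p = 0.15 from edgeR). It was added as the only other gene of the class. Another gene with the symbol si:dkeyp-4f2.1, starting at 69668871, matched nothing in the reference and so fell outside the class. That gene was called lower, with means of 3.97 CPM in control and 2.38 CPM after TP (log2 fold change -0.74, adjusted p = 5.6e-04 from edgeR).

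Genes that the file names RNH1 (1 to many) formed another repeated group; RNH1 encodes the ribonuclease inhibitor in humans, a leucine-rich repeat protein. Of 17 such genes 14 were tested, and 10 (71.4%) were lower and 0 higher, against 41.9% lower over all genes. With TMM factors 3 of the 14 were lower and 0 higher, a share much nearer to the 16.5% lower over all genes. The median log2 fold change of the group was -0.51 with library totals and -0.16 with TMM factors. The one from 69924719 to 69942332 measured 17.7, 22.8 and 25.4 CPM in control pools and 7.34, 8.39 and 10.5 CPM after TP. The groups were far apart (log2 fold change -1.35, SE 0.10, adjusted p = 6.7e-10 from edgeR). Those starting at 43172804 and 41292389 had log2 fold changes of -1.39 and -1.14. Of the ms4a17a genes, a tandem group of four-span membrane proteins, 12 of 13 were tested and 4 (33.3%) were lower, or 1 with TMM factors, so their share was not above that of all genes. ms4a17a.9 measured 17.1 ± 2.56 CPM in control pools and 9.24 ± 1.19 CPM after TP (SD, n = 8; log2 fold change -0.89). The genes of this paragraph and the next were chosen after their values were seen.

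Several genes known from other vertebrates, at either end of the arm, were down-regulated. ptprb, a receptor tyrosine phosphatase of blood vessel endothelium, measured 15.3, 16.4 and 21.2 CPM in control pools and 7.72, 8.47 and 10.2 CPM after TP, with no overlap (log2 fold change -0.98, SE 0.08, adjusted p = 8.6e-09 from edgeR). terfa, which encodes a telomeric repeat binding factor, measured 15.6 ± 1.53 CPM in control pools and 9.87 ± 0.620 CPM after TP (SD, n = 8; log2 fold change -0.66). alg10, a glucosyltransferase that completes the sugar donor of N-glycosylation, was at 8.55 ± 1.50 and 4.65 ± 0.942 CPM (log2 fold change -0.88). ttll1, a tubulin polyglutamylase, had a log2 fold change of -0.97, PSMB10, a subunit of the immunoproteasome in mammals, of -0.96, and ryroxd1 (now PYROXD1) of -0.81. All of these passed the test with library totals, and PSMB10 did not with TMM factors (adjusted p = 0.016 from edgeR) or in libraries 1 to 4 alone (adjusted p = 0.062 from edgeR). In contrast, celsr1a, a cadherin of planar cell polarity, measured 45.0 ± 6.65 CPM in control pools and 39.2 ± 2.63 CPM after TP (adjusted p = 0.043 from edgeR), and CKAP4, a membrane protein of the endoplasmic reticulum, was at 45.6 ± 4.74 and 45.2 ± 5.84 CPM (SD, n = 8; adjusted p = 0.90 from edgeR). With TMM factors CKAP4 was called higher, with a log2 fold change of 0.33, and that of celsr1a was 0.15.

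Of the 156 called genes of at least 0.5 CPM whose groups did not overlap, 2 were higher and 154 lower, so the smallest decreases stand next in order. Calls over all genes were also mostly decreases, with 41.9% of genes lower and 4.59% higher. The split by direction among genes without overlap was not counted over all genes. RAB21, a small GTPase of endosomes, measured 34.5 ± 3.14 CPM in control pools and 26.3 ± 1.40 CPM after TP (SD, n = 8; log2 fold change -0.39, SE 0.07). slco1d1, an organic anion transporter, measured 38.3, 41.9 and 48.6 CPM in control pools and 26.3, 30.1 and 32.3 CPM after TP (log2 fold change -0.51, SE 0.07). The other such genes were si:dkey-82i20.1 (-0.44), BX322597.1 (-0.48), si:ch211-108c17.3 (-0.50), BX248122.1 (-0.51), si:ch73-289h5.4 (-0.52) and a gene with the symbol si:dkey-16p6.1 (-0.52). None of these 8 decreases passed the test with TMM factors. The si:dkey-16p6.1 gene meant here starts at 43946107 and is now named si:dkeyp-77c4.1. Several other called long-arm genes bear that symbol and had larger decreases, such as the one starting at 56174538 (-0.90).

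With library totals 8 genes were higher in TP, and most bore only clone names, as did most long-arm genes outside the small RNA genes. si:dkey-56m15.8, from 52963960 to 52992446, measured 1.82, 2.70 and 3.21 CPM in control pools and 3.58, 5.00 and 6.23 CPM after TP. Every TP pool was above every control pool (log2 fold change 0.88, SE 0.14, adjusted p = 2.2e-05 from edgeR). si:dkey-27n6.9, from 69663502 to 69666972, measured 1.22, 1.84 and 2.12 CPM in control pools and 2.14, 2.84 and 3.89 CPM after TP, also without overlap (log2 fold change 0.75, SE 0.15). The groups overlapped in the other 6, which were named because they are all that remain. CR361561.2, the most abundant, measured 95.3, 109 and 133 CPM in control pools and 117, 151 and 182 CPM after TP (log2 fold change 0.41, adjusted p = 0.0012 from edgeR). PTCHD3 (1 to many), a name of the patched domain family, had the highest log2 fold change (1.44, SE 0.37) at 0.132 to 0.947 CPM in control pools and 0.541 to 2.13 CPM after TP. si:dkeyp-107f9.4 (1.17), si:dkey-78o7.3 (0.96), CR790376.1 (0.86) and BX649497.2 (0.60) completed the group.

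By level, the arm was dominated by 1 short stretch. Between 53793841 and 53897500 the annotation places 24 long-arm genes, among them 4 copies of the 5.8S ribosomal RNA gene, a part of the ribosomal DNA unit, and 3 short transcripts named otud4. Together they held 71.1% of all long-arm counts. The 5 long-arm genes of highest level all lay there: si:dkeyp-3b12.9, si:dkeyp-3b12.10, si:dkeyp-3b12.8, si:dkeyp-3b12.11 and si:dkey-77p23.6. No role is given for them. The first 3 are annotated at 451, 449 and 454 bases and had control means of 2249, 2237 and 2232 CPM, and whether they share reads was not tested.

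The summed level of this stretch differed more between libraries of a group than between the groups. In control libraries 1 to 8 it was 4392, 3613, 3080, 4558, 32217, 24945, 21653 and 16552 CPM. In TP libraries 1 to 8 it was 10811, 11293, 4727, 7005, 17785, 14551, 16843 and 17829 CPM. Libraries 5 to 8 were the high ones in both groups, and the groups overlapped. The numbers are the accession order within a group, and the split was seen in these values. si:dkey-153m14.1, outside the set, moved alike, from 5484 to 9225 CPM in control libraries 1 to 4 and from 33780 to 64221 CPM in control libraries 5 to 8, and from 9004 to 21789 and 31617 to 40566 CPM in the same TP libraries. Its part in the results was not tested by itself. Totals without ribosomal and mitochondrial RNA gave 310 lower and 9 higher long-arm genes. Leaving out the stretch and si:dkey-153m14.1 as well gave 329 lower and 10 higher. Over all libraries none of the 20 tested genes of the stretch was called by edgeR with library totals, DESeq2 or limma. Over all genes edgeR called 41.9% lower and 4.59% higher with library totals. At an unadjusted p under 0.05 in edgeR, 8 genes of the stretch were higher and 1 lower. The share at that cut was not counted over all genes, and whether the genes of the stretch share reads was not tested. With TMM factors 6 genes of the stretch were higher and 0 lower, 4 of them the 5.8S genes. Without control library 8, 7 were higher, and without TP library 4, 1 was higher. In libraries 1 to 4 alone 8 were higher (median log2 fold change 1.16), and in libraries 5 to 8 alone 4 were lower (median -0.52).

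**Figure D4:**
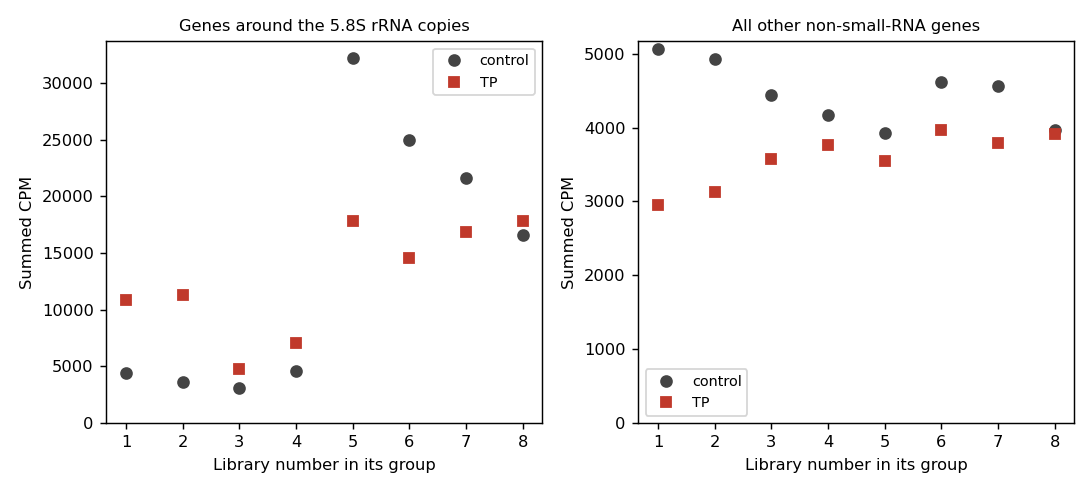
Summed CPM per library of the 24 genes around the 5.8S rRNA copies (left) and of all other long-arm genes that are not small RNA genes (right), for control (circles) and TP (squares), against the library number in its group. On the left libraries 5 to 8 lie between 14551 and 32217 CPM and libraries 1 to 4 between 3080 and 11293 CPM, and on the right control lies between 3929 and 5064 CPM and TP between 2948 and 3974 CPM.

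For si:dkeyp-3b12.9 the direction turned with the libraries compared. Control libraries 1 to 4 lay between 416 and 703 CPM and TP libraries 1 to 4 between 693 and 1524 CPM, while control libraries 5 to 8 lay between 2611 and 5203 CPM and TP libraries 5 to 8 between 2388 and 2879 CPM. The log2 fold changes were 0.95 (adjusted p = 0.0069 from edgeR) and -0.51 (adjusted p = 0.0086 from edgeR), each past the threshold. Their difference was -1.46 (SE 0.30) and did not pass the test of the interaction (adjusted p = 0.27 from edgeR). Over all libraries the log2 fold change was -0.22 (adjusted p = 0.71 from edgeR). Long-arm counts outside the stretch and outside small RNA genes summed to 3929 to 5064 CPM in control and 2948 to 3974 CPM in TP.

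Control libraries also differed among themselves in other genes of this stretch and in small RNA genes. The largest coefficients of variation in control (at 1 CPM or more) were those of CT583728.4 (117%), 2 U1 genes (97.2% and 96.4%) and 2 genes named otud4 (96.6% and 91.9%). The median over long-arm genes of 3 CPM or more was 17.3%, or 16.2% without small RNA genes and the stretch. It was 14.4% on the short arm and 15.2% over all genes.

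Most of the small RNA genes are copies whose share of the counts was far from their share of the genes. U6, the catalytic snRNA of the spliceosome, had 666 of its 706 annotated genes (94.3%) on the long arm, yet these held 216 counts in all libraries together, or 1.50% of the family's counts, and 580 had none. U1, the snRNA that recognises 5' splice sites, had 319 of 382 genes (83.5%) there with 3.89% of its counts. The best covered U1 copies were 6 genes on chromosomes 7, 8 and 9, with 1097758 to 1140678 counts each, against 2590 for the highest copy of the long arm. 5S rRNA, a part of the large ribosomal subunit, showed the opposite. Only 22 of its 758 genes (2.90%) lay on the long arm, and they held 89.7% of its counts. Of these, 17 copies held between 6434 and 7434 counts each. Copies are given as sums below, since reads of one copy may be placed on another.

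The U1 and 5S sums overlapped between the groups. U1 genes of the long arm summed to 265 to 1021 CPM in control and 198 to 1539 CPM in TP, with the highest sums in TP library 4 (1539 CPM), control library 5 (1021 CPM) and TP library 3 (969 CPM). U1 genes elsewhere were also highest in those 3 libraries, at 30990, 21370 and 21804 CPM. 5S genes of the long arm summed to 72.9 to 300 CPM in control and 38.4 to 741 CPM in TP, again with TP library 4 highest and TP library 3 next (592 CPM). The medians of the fitted log2 fold changes were 0.30 over 193 U1 genes and 0.65 over 19 5S genes, with no call in either family over all libraries. In libraries 1 to 4 alone these medians were 1.28 and 1.60, and in libraries 5 to 8 alone -0.76 and -0.72. The 6 annotated 5.8S genes of the arm summed to 69.4 to 388 CPM in control and 148 to 1480 CPM in TP, where library 1 alone was above 323 CPM. Their median log2 fold change was 1.19 with 0 of 6 called, and 1.56 with 5 called higher with TMM factors.

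**Figure D5:**
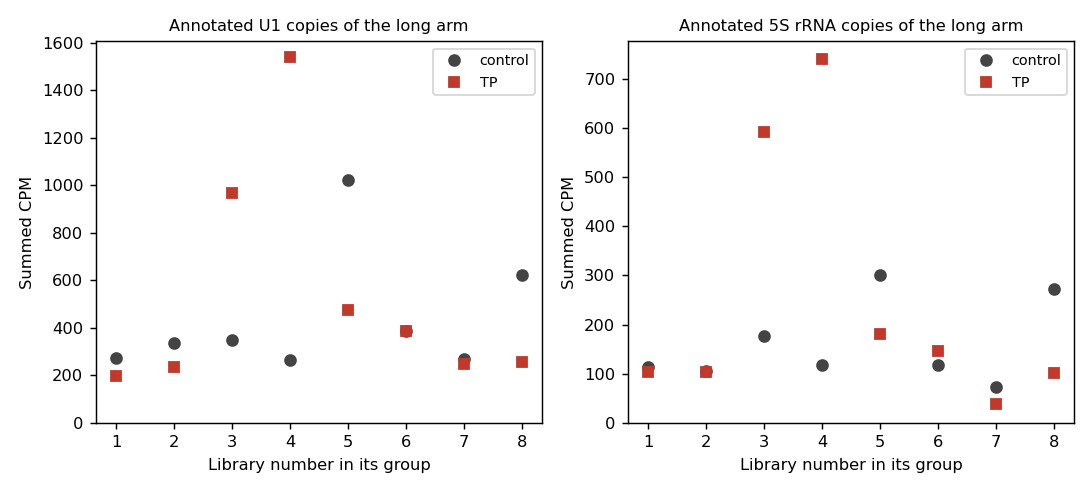
Summed CPM per library of the 319 annotated U1 genes (left) and the 22 annotated 5S rRNA genes (right) of the long arm, for control (circles) and TP (squares), against the library number in its group. TP libraries 3 and 4 lie highest for 5S (592 and 741 CPM), and TP library 4 and control library 5 for U1 (1539 and 1021 CPM).

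The miR-430 genes gave almost no counts. The 54 hairpin genes lie between 28738728 and 28754891, and 7 of them held 16 counts together over all 16 libraries. None could be tested, and no level or difference was detectable in these libraries. The annotated miRNA genes of the arm had a median length of 81 bases. Whether transcripts this short can be counted in such libraries was not tested.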

How the data were processed

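The deposited values are raw counts, which the authors made per Ensembl transcript (release 84, positions on GRCz10) from total RNA of 16 pools. Reads were aligned with Bowtie2 to transcript sequences and concordant pairs were kept. The submitters' processing notes also name FastQC, SAMtools and limma, without versions in the sources used here. The library kit marks strand, but no source says that counting used it. Overlapping and antisense genes, and near-identical copies, therefore cannot be told apart.

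Counts were summed per gene, and the 209 transcripts lacking a gene ID (0.220% to 0.282% of counts) entered the totals only. The main test was edgeR 4.0.16 under R 4.3.3, a quasi-likelihood fit of TP against control on all genes that passed edgeR's expression filter. Library totals as the only scaling and the threshold of 0.01 follow the study's methods, and the Benjamini-Hochberg adjustment was chosen here. The SE of a log2 fold change was obtained from it and the F statistic. The test was tried on simulated counts first. Alternatives were DESeq2 1.42.0, limma 3.58.1 on scaled log2 counts (pseudocount 1), TMM factors, other filters, other totals and leaving out each library in turn. Pools came from separate dishes. Among pairs of libraries of a group the lowest chi-square per gene was 3.89 in control and 4.21 in TP, above sampling noise.

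Genes were named by rule. The first took the 10 highest and 10 lowest log2 fold changes among called genes without overlap whose higher group averaged 0.5 CPM or more. Also taken were the 5 most abundant, the 4 largest changes per class and the 5 most variable in control at 1 CPM or more. A further rule took genes at 0 in 1 group that reached a set minimum of counts in the other, and none met it. Others are marked as chosen after their values were seen. The members and lists were chosen with earlier results of these data known. Zinc finger genes were classed by name only.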

Additional observations from a re-analysis of the deposited data

Results flagged for a closer look

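In each group of 8 libraries the highest or lowest value was compared with the others by Dixon's test. Chance alone gives about 5% for values not chosen by their spread. CT583728.4, 2 U1 genes and 2 genes named otud4 were named for their spread in control, so that rate does not apply to the whole. Of 134 groups of values 17 held a library far from the rest. Several of these fell in control library 5: the highest values of CT583728.4 (14.2 CPM), of 2 U1 genes (3.95 and 9.59 CPM), of 2 genes named otud4 (65.8 and 69.6 CPM) and of the long-arm U1 sum (1021 CPM), and the lowest of si:ch211-210m1.2 (4.95 CPM). TP library 1 held the highest 5.8S sum (1480 CPM), and TP library 4 the highest value of a U1 gene (5.26 CPM) and the lowest of si:ch73-289h5.4 (5.71 CPM). The others were single genes: znf1000 (1.57 CPM) and ptprb (21.2 CPM) in control library 1, zgc:174314 (1.14 CPM) in control library 2, si:dkey-29j8.2 (1.73 CPM) in control library 3, znf987 (1.45 CPM) in control library 6, BX537137.2 (0.259 CPM, the lowest) in control library 8 and ms4a17a.9 (12 CPM) in TP library 2.

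The 5.8S stretch has 20 tested genes, and the following is given for those named in this report. In 6 of them every TP library of numbers 1 to 4 was above the mean of control libraries 1 to 4. In the same 6 every TP library of numbers 5 to 8 was below the mean of control libraries 5 to 8. The difference of the log2 fold changes was -1.43 in si:dkeyp-3b12.11, -1.69 in si:dkey-77p23.6, -1.47 in si:dkeyp-3b12.8, -1.46 in si:dkeyp-3b12.9, -1.48 in si:dkeyp-3b12.10 and -1.41 in the otud4 gene ENSDARG00000099939. Another gene named otud4 (ENSDARG00000103468) did not meet this rule. Its TP library 1, at 5.95 CPM, was below the mean of control libraries 1 to 4 (7.18 CPM). CT583728.4 did not meet the rule either, with TP library 1 at 0.576 CPM and a mean of 1.76 CPM in control libraries 1 to 4. The split was chosen after seeing the data. No gene of the 24462 tested passed 0.01 in edgeR's test of this interaction (lowest adjusted p = 0.267). An unadjusted p under 0.05 was seen in 3203 of the 24462 genes and in 295 of the 1152 tested long-arm genes. The share was larger on the long arm, and that difference was not tested. The 1152 include 193 U1, 19 5S and 20 stretch genes. Their median log2 fold changes were 1.28, 1.60 and 1.16 in libraries 1 to 4 alone, and -0.76, -0.72 and -0.52 in libraries 5 to 8 alone. Reads of one copy may be placed on another, so such genes may not count as separate ones. The share without them was not counted. No other tool was run on the interaction.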

How the results depend on the processing

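The scaling had the largest effect. TMM factors and DESeq2 each gave 41 higher long-arm genes, with 129 and 152 lower and medians of -0.092 and -0.091. On the short arm they gave 100 and 112 higher, 100 and 108 lower, and medians of -0.009 and -0.004, and over all genes 3895 and 4379 higher and 4038 and 4359 lower. Under these scalings the log2 fold changes turned positive for celsr1a (0.148 and 0.155), si:dkeyp-4f2.1 (0.073 and 0.077), si:dkey-176f19.6 (0.18 and 0.186), si:dkeyp-3b12.9 (0.052 and 0.057), znf1149 (0.212 and 0.219) and CKAP4 (0.326 and 0.333), of 48 genes compared. Of the rest 12 and 10 lost the threshold.

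An adjusted p of 0.05 gave 18 higher long-arm genes. Libraries 1 to 4 alone, chosen after seeing the data, gave 175 lower long-arm genes, 7 higher and 161 lower short-arm genes (median -0.453), and 393 higher and 6379 lower genes in all. Libraries 5 to 8 alone gave 178 lower long-arm genes, a short-arm median of -0.225 and 6761 lower genes in all. Both hold fewer samples. There si:dkey-176f19.6 (0.08), znf1149 (0.123) and CKAP4 (0.063) turned positive in libraries 5 to 8, and si:dkeyp-3b12.9 (0.949) in libraries 1 to 4. It was also positive with the set of libraries as a term (0.217) and in limma (0.223). Totals without ribosomal and mitochondrial RNA gave 310 lower and 9 higher long-arm genes, against 418 and 8 with full totals. Leaving out the 5.8S stretch and si:dkey-153m14.1 as well gave 329 and 10. CKAP4 was positive with both of these totals (0.064 and 0.065). Elsewhere the cause was not tested.

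Leaving out 1 library at a time gave 7 to 16 higher and 334 to 418 lower long-arm genes (median -0.478 to -0.411), 26 to 33 higher and 239 to 266 lower short-arm genes (-0.385 to -0.303), and 1029 to 1243 higher and 9126 to 10572 lower genes in all. The 16 came without control library 8. It ran from -0.375 to 0.084 for si:dkeyp-3b12.9, positive without control library 5, and from -0.047 to 0.034 for CKAP4. The calls of si:dkey-82i20.1 and si:dkeyp-107f9.4, both at an adjusted p of 0.0081, were lost without each of 9 single libraries. No paired analysis was possible because the labels number the libraries of the 2 groups without shared numbers. The boundary at 33000000, keeping pimr genes, other filters and halved counts (the last chosen after seeing the data) kept the long-arm counts within 1.5 times.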
